A study of Mus musculus with 4 samples.

Results

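Cxcl1, Il1b, Itgb2, Cytip and Ptpn22 are 5 genes of inflammation and leukocytes whose signal in HSL-null liver was below that of wild type on a normal diet and above it on a high-fat diet. They were selected on these values, so the genotype ratios below are a description of what selected them and support nothing further. The array carried 8 probe sets for them, of 12422 that were not controls, and 6 of the 8 passed a filter on low signal. Each of the 5 genes had at least 1 probe set that passed, among 4829 genes in all.

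HSL-null mice carry a general knockout of Lipe, the gene of hormone-sensitive lipase, an enzyme that releases fatty acids from stored triacylglycerol. The study set 4 groups of female mice side by side, killed at 8 months of age in the fed state. They were HSL-null and wild-type mice after 6 months on the normal diet (ND, 11% of energy from fat), and HSL-null and wild-type mice after 6 months on the high-fat diet (FD, 58% of energy from fat). Each group is 1 Affymetrix MG_U74Av2 array of RNA from pooled livers, with 4 livers in the HSL-null FD pool and 6 in each of the others. With 1 array a group there was no replicate and no test, and no p-value is given. Pools average over animals, so the spread between animals was not measured.

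Lipe itself, on its 1 probe set, had signals of 11.9 in HSL-null and 28.0 in wild-type liver on ND, and 15.9 in HSL-null and 34.0 in wild-type liver on FD. It was lower in HSL-null liver on both diets, as the labels have it, although its mean signal lay under the filter and whether its probes lie in the deleted part was not determined. The 2% trimmed mean of the 4 arrays lay between 100.085 and 100.094, and their median signal between 25.2 and 28.3. Signals are linear and unitless, those under a floor of 6.1 were raised to it before ratios were taken, and genes counted as 2-fold different at a log2 ratio of 1 in size. The 2 genotypes were run with 2 different solution lots, which cannot be told apart from genotype. Genes with a second probe set gave the one estimate of measurement error. Over 687 such genes, the log2 ratios of probe sets to the same gene scattered with an SD of 0.298, which leaves out any error that is shared across an array and all variation between animals.

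Cxcl1 encodes a chemokine that draws neutrophils through the receptor CXCR2, and Il1b encodes interleukin-1 beta, a cytokine made as an inactive precursor and cut by caspase-1. In liver both are known as products of activated Kupffer cells, the resident macrophages, and hepatocytes also make Cxcl1 in the acute phase response. Itgb2 encodes CD18, the beta chain that leukocyte integrins share. Cytip encodes a scaffold protein that binds cytohesins and damps integrin adhesion in leukocytes, and Ptpn22 encodes a phosphatase that restrains signalling from antigen receptors.

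The sequences just before the start sites of 3 of these genes are shown because they hold a match to one of 4 motifs searched, those of NF-kB, C/EBP and PU.1, which are known from inflammatory and myeloid genes, and the TATA box. The RefSeq promoter table on GRCm38.p6 held windows for 4 of the 5 genes, with 2 for Ptpn22. The 250 bases before the start site are given 5′ to 3′ along the gene, with matches to the motifs searched in capitals. Cxcl1 lies at chr5:90890995-90891244 on the plus strand, Il1b at chr2:129371140-129371389 on the minus strand and Cytip at chr2:58160123-58160372 on the minus strand.
Cxcl1: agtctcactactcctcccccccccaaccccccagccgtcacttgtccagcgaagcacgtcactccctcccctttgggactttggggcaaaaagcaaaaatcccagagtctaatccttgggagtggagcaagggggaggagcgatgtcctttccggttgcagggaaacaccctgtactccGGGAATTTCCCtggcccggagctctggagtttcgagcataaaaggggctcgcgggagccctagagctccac
Il1b: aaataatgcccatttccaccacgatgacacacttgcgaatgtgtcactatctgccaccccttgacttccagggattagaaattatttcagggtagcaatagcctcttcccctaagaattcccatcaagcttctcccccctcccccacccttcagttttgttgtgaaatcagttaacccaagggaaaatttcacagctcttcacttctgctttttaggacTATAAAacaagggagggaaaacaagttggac
Cytip: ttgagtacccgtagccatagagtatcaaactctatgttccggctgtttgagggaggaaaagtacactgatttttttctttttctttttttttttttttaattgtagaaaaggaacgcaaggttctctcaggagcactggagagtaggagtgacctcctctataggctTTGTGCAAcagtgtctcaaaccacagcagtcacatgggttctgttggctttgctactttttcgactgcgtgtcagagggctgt
The capitals in Cxcl1 mark a match to the NF-kB motif on each strand, overlapping each other, 71 and 70 bases before the start. In Il1b they mark the TATA motif TATAAA, 31 bases before the start. In Cytip they mark the C/EBP motif TTGCNNAA on the opposite strand, 83 bases before the start. Both strands were searched. Of 32851 promoter windows of the same length, 7.25% held the NF-kB motif, 12.4% TATAAA and 9.56% the C/EBP motif. The PU.1 motif GAGGAAGT, in 2.44% of windows, matched 0 of the 5 windows of these genes, which says only that those letters are not there. A match is a run of letters and was not tested as a binding site.

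Cxcl1 had the widest range of signal among the 5 genes. Its brighter probe set, 95348_at, read 89.6 in HSL-null and 312.6 in wild-type liver on ND, and 246.5 in HSL-null and 62.7 in wild-type liver on FD. That is 3.49-fold lower in HSL-null liver on ND (log2 ratio -1.80) and 3.93-fold higher on FD (log2 ratio 1.98). The second probe set, 95349_g_at, was designed on the same transcript and read 49.6 in HSL-null and 150.4 in wild-type liver on ND, and 144.6 in HSL-null and 31.5 in wild-type liver on FD. Its genotype log2 ratio was -1.60 on ND against 2.20 on FD, so both readings put the HSL-null ND array and the wild-type FD array low and the other 2 high. The suffix g marks a probe set that shares probes with another, and both readings come from the same RNA and the same arrays.

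Il1b was measured by 1 probe set, 103486_at. Its signal was 26.1 in HSL-null and 53.2 in wild-type liver on ND, and 55.3 in HSL-null and 20.0 in wild-type liver on FD. HSL-null liver was 2.04-fold lower on ND (log2 ratio -1.03) and 2.76-fold higher on FD (log2 ratio 1.47). Il1b was the only gene of the 5 whose highest signal came from the HSL-null FD array, by a log2 ratio of 0.06 over the wild-type ND array, which is well inside the SD between probe sets.

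Itgb2, on probe set 102353_at, read 45.5 in HSL-null and 118.3 in wild-type liver on ND, and 49.6 in HSL-null and 24.7 in wild-type liver on FD. The HSL-null arrays were thus 2.60-fold lower on ND (log2 ratio -1.38) and 2.01-fold higher on FD (log2 ratio 1.01). Unlike the other 4 genes, Itgb2 had nearly the same signal on the FD and ND arrays of HSL-null liver, with a log2 ratio of 0.12, and its wild-type arrays lay 4.79-fold apart.

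Cytip was read by 2 probe sets. The brighter, 104257_g_at, had signals of 53.2 in HSL-null and 127.2 in wild-type liver on ND, and 87.1 in HSL-null and 42.1 in wild-type liver on FD, with genotype log2 ratios of -1.26 and 1.05. The dimmer, 104256_at, had 12.0 in HSL-null and 31.8 in wild-type liver on ND, and 23.6 in HSL-null and 8.9 in wild-type liver on FD. It lay under the filter with a mean of 19.1, but above the floor on all 4 arrays, and its log2 ratios of -1.41 on ND against 1.41 on FD had the same signs.

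Ptpn22 was also read by 2 probe sets, and 1 of them carried no measurable signal. Probe set 92356_at had 24.1 in HSL-null and 61.4 in wild-type liver on ND, and 48.4 in HSL-null and 19.5 in wild-type liver on FD, which gives log2 ratios of -1.35 and 1.31. The other, 161848_r_at, read 0.1 in HSL-null and 0.1 in wild-type liver on ND, and 0.6 in HSL-null and 2.7 in wild-type liver on FD. All 4 of those values lie at or under the floor, so they give no ratio and no second reading of the gene.

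**Figure D1:**
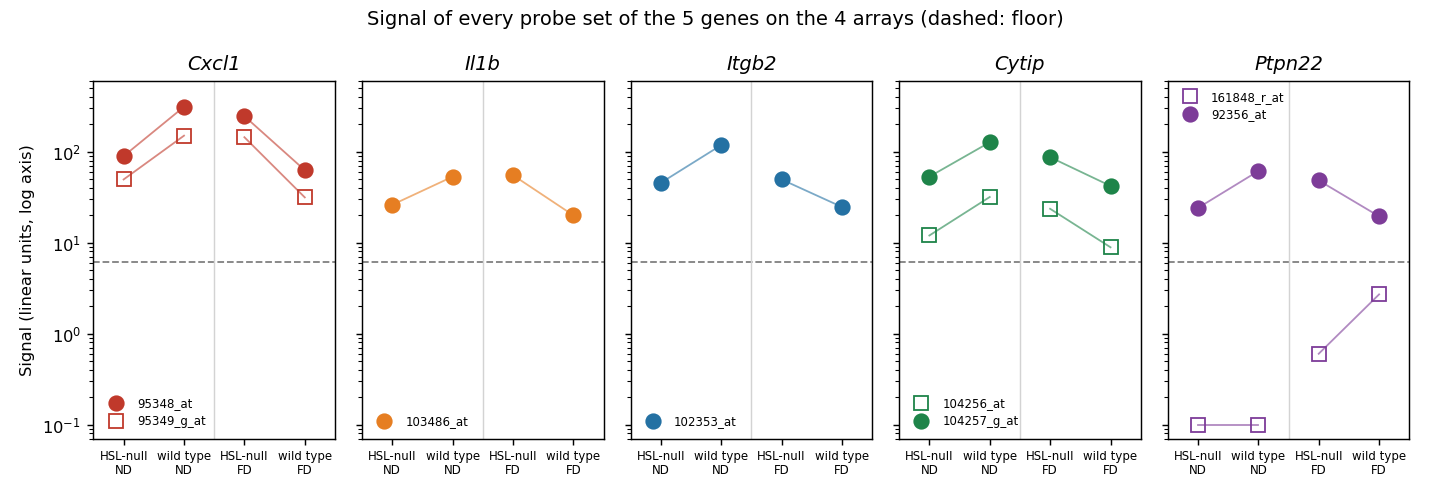
Signal of all 8 probe sets of the 5 genes (vertical axis, linear units on a log scale) on the 4 arrays, with filled circles for the probe set that stands for the gene, open squares for a second probe set, lines joining the 2 genotypes of a diet and a dashed line at the floor of 6.1. In the 7 probe sets above the floor the HSL-null array is the lower on ND and the higher on FD, while Ptpn22 161848_r_at stays under the floor.

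Set side by side, the 5 genes ordered the arrays in nearly the same way. Wild-type ND was highest, then HSL-null FD, HSL-null ND and wild-type FD, in 6 of the 7 probe sets above the floor, with Il1b as the exception described above. Some neighbours in that order were close. The 2 low arrays, HSL-null ND over wild-type FD, lay 0.31 to 0.88 apart on the log2 scale over the 5 genes, with Ptpn22 the closest and Itgb2 the widest. The 2 high arrays, HSL-null FD and wild-type ND, differed by a log2 ratio of 0.34 in Cxcl1 and in Ptpn22 and of 0.55 in Cytip, and by 1.25 in Itgb2, each higher in wild-type ND. The distance from the highest to the lowest array was 4.99-fold for Cxcl1, 4.79-fold for Itgb2, 3.15-fold for Ptpn22, 3.02-fold for Cytip and 2.76-fold for Il1b.

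On ND, 1.08% of all genes were 2-fold lower in HSL-null liver, which is 52 of 4829, and the 5 genes had log2 ratios between -1.80 and -1.03 there. On FD, 1.86% were 2-fold higher in HSL-null liver, 90 of 4829, and the 5 genes lay between 1.01 and 1.98. Only 0.166% did both, which is 8 of 4829 and includes the 5 by their selection. No gene, 0 of 4829, had the opposite pattern of 2-fold higher on ND and 2-fold lower on FD. Under each of the 3 other scalings tried, the counts were 2 or 3 genes with the pattern of the 5 and 1 gene with the opposite one. At any size, 1552 genes or 32.1% were lower on ND yet higher on FD in HSL-null liver. The median log2 ratio of all genes was -0.02 on ND and 0.07 on FD.

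The call at 2-fold was close for 3 of the 5 genes. Taking the smaller of a gene's 2 genotype ratios in size, Cxcl1 had a log2 value of 1.80 and Ptpn22 1.31, and Cytip 1.05, Il1b 1.03 and Itgb2 1.01 lay just inside. Under each of the 3 scalings tried (quantile, median and cyclic loess), Cxcl1 and Ptpn22 were past 2-fold on both diets, whereas Il1b had -0.92 to -0.90 on ND, Itgb2 0.84 to 0.86 on FD and Cytip 0.88 to 0.93 on FD. With a pseudocount the same 3 genes fell short of 2-fold on the same diets, with -0.88 for Il1b, 0.86 for Itgb2 and 0.95 for Cytip. With the floor at the median signal, Ptpn22 had 0.86 and Itgb2 0.89 on FD, and Il1b -0.995 on ND. In all 9 alternative settings each gene that was kept stayed lower on ND and higher on FD in HSL-null liver.

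Another 3 genes met the same 2-fold limits, and they are not leukocyte genes as a set. Chrne, a subunit of the muscle acetylcholine receptor, read 26.0 in HSL-null and 55.8 in wild-type liver on ND, and 84.1 in HSL-null and 35.1 in wild-type liver on FD. Krtap3-1, a hair keratin-associated protein, read 22.5 in HSL-null and 73.2 in wild-type liver on ND, and 54.5 in HSL-null and 27.1 in wild-type liver on FD. Igh-VS107, an immunoglobulin heavy chain variable segment, read 18.6 in HSL-null and 37.3 in wild-type liver on ND, and 45.4 in HSL-null and 8.8 in wild-type liver on FD, while its other 2 probe sets were under the floor on 3 and 4 of the arrays. Just outside the limits were T2 (smaller ratio 0.996), the B cell surface protein gene Cd72 (0.98), Ptprc (0.97), Xist (0.96), Erdr1 (0.92) and Ccnl2 (0.88).

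**Figure D2:**
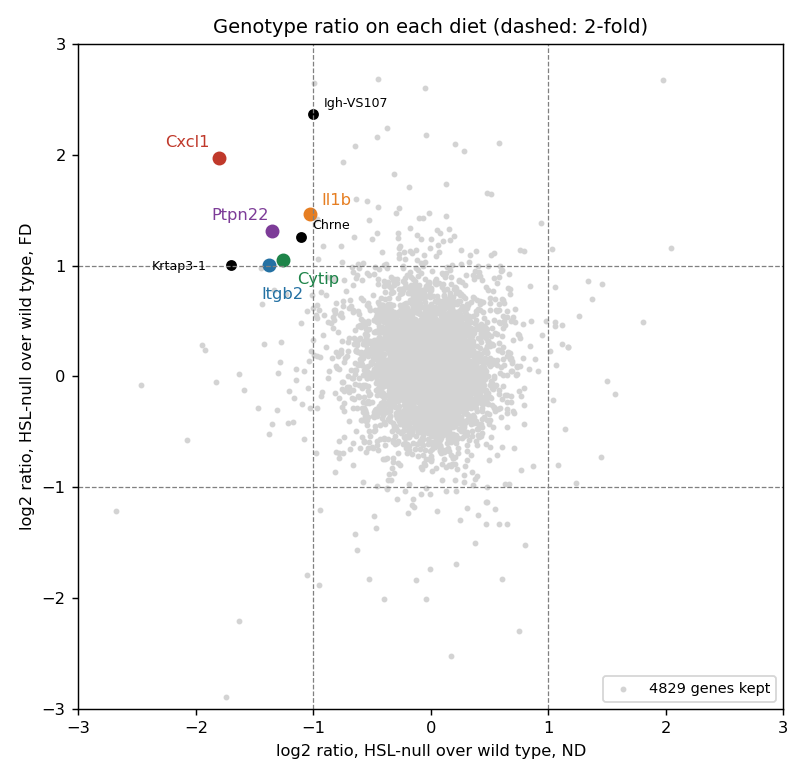
Log2 ratio of HSL-null over wild type on ND (horizontal) and on FD (vertical) for the 4829 genes kept (grey), the 5 genes (coloured) and the 3 other genes past 2-fold in both (black); dashed lines mark 2-fold, and 3 genes lie outside the axes. The upper left corner beyond both dashed lines holds 8 genes, with Cxcl1 at -1.80 and 1.98 farthest out along the diagonal, and the lower right corner holds none.

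The difference between the FD and the ND genotype log2 ratio measures the reversal as 1 value per gene. It was 3.78 for Cxcl1, 2.66 for Ptpn22, 2.50 for Il1b, 2.38 for Itgb2 and 2.31 for Cytip, against a median of 0.09 and an SD of 0.55 over all genes. Cxcl1 had rank 1 of 4829 by this value, Ptpn22 rank 9, Il1b 13, Itgb2 17 and Cytip 19. In all, 29 genes had a difference of 2 or more and 8 had one of -2 or less. Large differences were concentrated among dim genes. Of the 1208 dimmest genes, with a mean signal of 27.0 to 52.9 and Il1b and Ptpn22 among them, 19 had a difference of 2 or more and the SD was 0.66. Of the next 1207 genes, with Itgb2 and Cytip among them, 4 had such a difference (SD 0.51), and of the 1207 after those, with Cxcl1 among them, also 4 (SD 0.50). Of the 1207 brightest, 2 did (SD 0.45).

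Read along diet within a genotype, the same 4 arrays place most of the contrast in wild-type liver. In wild type, FD was lower than ND for all 5 genes by 2-fold or more, with log2 ratios of -2.32 for Cxcl1, -2.26 for Itgb2, -1.66 for Ptpn22, -1.60 for Cytip and -1.41 for Il1b. Among all genes 2.36% were 2-fold lower on FD than on ND in wild type. In HSL-null liver, FD was 2-fold or more above ND for Cxcl1 (1.46), Il1b (1.08) and Ptpn22 (1.01), and Cytip had 0.71 and Itgb2 0.12. Only Cxcl1 stayed past 2-fold there under the 3 scalings and with a pseudocount, where Il1b had 0.93 to 0.95 and Ptpn22 0.85 to 0.87. Among all genes 0.828% were 2-fold higher there. These diet ratios use the arrays that selected the genes, and the diet difference is the same quantity as the genotype difference, so they are no second line of data.

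The genes with a pattern most like the mean of the 5 were sought among 4826 genes above the floor on all 4 arrays. Log2 signals were centred on each gene's own mean, and likeness was the root mean square difference (RMS) over the 4 arrays. The nearest was Ptprc, the gene of CD45, a phosphatase carried by all leukocytes, at 0.153. Its signals were 24.4 in HSL-null and 47.8 in wild-type liver on ND, and 36.6 in HSL-null and 13.7 in wild-type liver on FD. A second probe set, 101298_g_at, read 25.6 in HSL-null and 42.2 in wild-type liver on ND, and 28.5 in HSL-null and 12.5 in wild-type liver on FD, and another, 101297_at, was under the floor on all 4 arrays. So CD45 transcripts had the order of the 5 genes in both readings above the floor.

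The next nearest were Xist, the RNA that silences an X chromosome in female cells (0.220), Pirb, an inhibitory receptor of myeloid and B cells (0.234), Cd72 (0.241), the cyclin gene Ccnl2 (0.242) and the RNA helicase gene Dhx9 (0.245). After them came Csf3, which encodes the granulocyte growth factor G-CSF (0.254), Krtap3-1 (0.267), the scaffold protein gene Ahnak (0.282) and the surface protein gene Cdcp1 (0.291). Xist read 49.9 in HSL-null and 97.0 in wild-type liver on ND, and 60.1 in HSL-null and 28.9 in wild-type liver on FD, and Csf3 read 30.7 in HSL-null and 48.3 in wild-type liver on ND, and 43.6 in HSL-null and 18.2 in wild-type liver on FD. The 10 thus hold leukocyte genes beside others, and 2 of the 10, Ptprc and Cd72, were in one of the gene lists used here.

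Taken singly, Cxcl1 was nearest to Ptpn22 (RMS 0.289) and Igh-VS107 (0.315). Il1b was nearest to Ptpn22 (0.150) and Cdcp1 (0.156), Cytip to Ptpn22 (0.115) and Pirb (0.133), and Ptpn22 to Cytip (0.115) and Il1b (0.150). Itgb2 stood somewhat apart from the other 4, with Cd72 (0.097) and Erdr1 (0.180) as its nearest genes and an RMS of 0.317 to the mean of the 5, against 0.083 to 0.268 for the others. A second probe set of Erdr1 had genotype log2 ratios of -0.42 on ND against -0.28 on FD, unlike the first with -0.92 and 1.17.

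**Figure D3:**
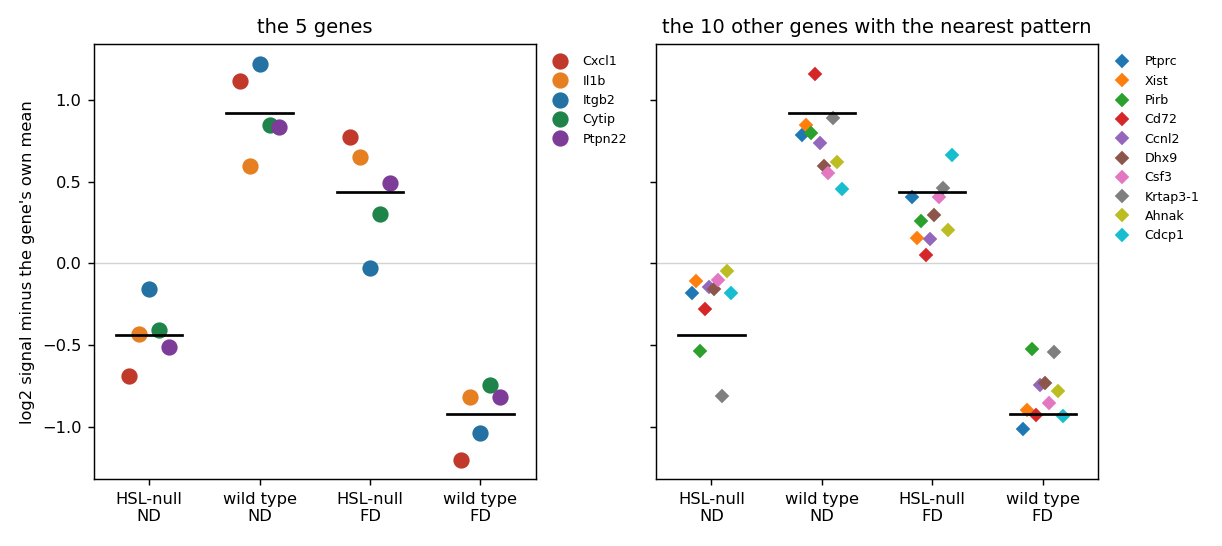
Log2 signal minus the gene's own mean over the 4 arrays (vertical axis) for the 5 genes (left, circles) and the 10 other genes with the nearest pattern (right, diamonds), with black bars at the mean of the 5. The bars lie at -0.44 in HSL-null and 0.92 in wild-type liver on ND, and at 0.44 in HSL-null and -0.92 in wild-type liver on FD.

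Other genes of the pathways in which the 5 genes act mostly had smaller ratios. The 5 were selected for large ratios, so this comparison is no result about them. Ptprc, among the other genes, had an FD minus ND difference of 2.39, against 2.38 for Itgb2 and 2.31 for Cytip. In 7 lists of pathway genes, leaving out the 5, 57 of the listed genes passed the filter. Their median log2 ratio was -0.19 on ND and 0.17 on FD, 30 of the 57 were lower on ND yet higher on FD in HSL-null liver at any size, 1 was 2-fold lower on ND and 1 was 2-fold higher on FD. The background for these counts, and for the like counts of each list below, is the 32.1%, 1.08% and 1.86% of all genes given above.

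Of the chemokines, 24 besides Cxcl1 were on the array and 6 passed the filter. Their median log2 ratio was -0.02 on ND, where median scaling turned it to 0.11, and -0.29 on FD. Cxcl9, a chemokine induced by interferon gamma that draws T cells, ran the other way from Cxcl1, with 155.4 in HSL-null and 100.6 in wild-type liver on ND, and 78.4 in HSL-null and 153.6 in wild-type liver on FD. Ccl5, which also draws T cells, was the 1 gene of the 6 past 2-fold on FD, with 24.6 in HSL-null and 49.3 in wild-type liver, and had a log2 ratio of -0.38 on ND. Ccl6 had -0.34 on ND and 0.29 on FD. The chemokines nearest to Cxcl1 in function were near the floor. Cxcl2 was at or under it on 3 arrays. Cxcl5 read between 2.9 and 9.6, with log2 ratios of -0.45 and 0.65, and was under the floor on 1 array. Also under the filter, Cxcl14 had -1.41 and 1.295, Ccl22 -0.67 and 1.255 and Cxcl13 -0.52 and 0.91, while Ccl3 had 0.69 and -0.69 and Cxcl10 0.14 and -0.44. Of 20 chemokines above the floor on at least 1 array, Cxcl1 among them, 9 were lower on ND and higher on FD. That count is not limited to genes past the filter, so the 32.1% is no background for it, and no like share was counted.

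The receptor of Cxcl1 gave no measurable signal. Cxcr2 read between 0.8 and 6.1 on the 4 arrays, at or under the floor on each. Of 17 chemokine receptors on the array, 7 were at or under the floor on all arrays and 1, Cx3cr1 of monocytes and macrophages, passed the filter, whose log2 ratio was -0.12 on ND against 0.16 on FD. Under median scaling the median of the receptors that passed the filter was 0.41 on ND and -0.32 on FD. Those are values of the list and not of Cx3cr1, since the filter follows the scaling and other receptors can then pass.

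Genes of the interleukin-1 family other than Il1b passed the filter in 8 of 16 cases, with 0 past 2-fold and medians of -0.17 on ND against 0.002 on FD, where the 3 scalings gave -0.17 to -0.11. Il1r1, the signalling receptor, read 49.2 in HSL-null and 56.0 in wild-type liver on ND, and 44.7 in HSL-null and 30.1 in wild-type liver on FD. Il1rn, the receptor antagonist, had a log2 ratio of -0.15 on ND against -0.20 on FD, each smaller than the SD between probe sets. Il18bp, which binds and blocks interleukin-18, had -0.22 on ND and 0.38 on FD, and Il18 had 0.33 and -0.11. Il1a lay under the filter, with 21.5 in HSL-null and 28.8 in wild-type liver on ND, and 34.9 in HSL-null and 21.8 in wild-type liver on FD, which is the order of the genotypes in Il1b at a smaller size. Casp1, also under the filter, read between 17.6 and 20.8 on all arrays, Il1rap was under the floor on all 4, and the 2 probe sets of Il1r2 read between 1.8 and 14.6.

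Of 23 NF-kB subunits, inhibitors and known targets, a list that does not hold the 5 genes, 12 passed the filter. Of these 12, 0 were past 2-fold, and the medians were -0.04 on ND and 0.09 on FD. These medians changed sign on ND under each of the 3 scalings (0.001 to 0.09) and on FD under median scaling (-0.08) and cyclic loess (-0.01). Csf1, the macrophage growth factor, had a log2 ratio of -0.22 on ND against 0.65 on FD, Bcl3 -0.54 and 0.22, Icam1, an adhesion molecule and ligand of Itgb2 integrins, -0.02 and 0.41, and Sod2 0.34 and -0.09. Under the filter, Nfkbie had -1.31 and 0.72 and Nfkb2 -1.05 and 0.18, both past 2-fold on ND. Of 18 genes of the list above the floor on at least 1 array, 8 were lower on ND and higher on FD, and no like share was counted.

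Most integrin genes had the signs of Itgb2 at smaller sizes. Of 16 leukocyte integrins, ligands and selectins besides Itgb2, 8 passed the filter, with medians of -0.28 on ND against 0.38 on FD, and 7 of the 8 were lower on ND and higher on FD in HSL-null liver. Itgax, the CD11c chain that pairs with CD18, read 37.7 in HSL-null and 78.3 in wild-type liver on ND, and 46.3 in HSL-null and 30.7 in wild-type liver on FD, and was the 1 gene of the 8 past 2-fold on ND. Itgb7, a beta chain of lymphocyte integrins, had a log2 ratio of -0.83 on ND against 0.44 on FD. Selplg, a selectin ligand, had -0.54 and 0.42. Among the other partners of CD18, Itgal read 31.4 in HSL-null and 39.5 in wild-type liver on ND, and 32.1 in HSL-null and 25.3 in wild-type liver on FD. Itgam was at or under the floor on 3 arrays and read 9.2 on the fourth, wild-type ND.

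Of 12 genes of cytohesins, ARF GTPases and integrin activation besides Cytip, 9 passed the filter, with 0 past 2-fold. Their medians were -0.34 on ND and 0.28 on FD, and 8 of the 9 were lower on ND and higher on FD in HSL-null liver. Rap1a, a GTPase that activates integrins, had a log2 ratio of -0.62 on ND against 0.59 on FD, Arf6 -0.31 and 0.83, and Apbb1ip, which links RAP1 to integrins, -0.65 and 0.35. Of the cytohesins, Cyth2 had -0.11 and 0.28. Cyth1 and the brighter probe set of Cyth3 lay just under the filter with -0.34 and 0.34 and with -0.40 and 0.34.

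Of 25 antigen receptor signalling genes and phosphatases besides Ptpn22, 16 passed the filter, with medians of -0.12 on ND, turned to 0.01 by median scaling, and 0.26 on FD. In this list 6 of the 16 were lower on ND and higher on FD, 0 were 2-fold lower on ND, and Ptprc was the 1 gene 2-fold higher on FD. Lcp2, an adaptor that binds downstream of antigen receptors, read 30.1 in HSL-null and 54.1 in wild-type liver on ND, and 31.5 in HSL-null and 17.0 in wild-type liver on FD. Fyn, a kinase, had log2 ratios of -0.19 and 0.59. Csk, the kinase that binds the Ptpn22 protein, had -0.31 on ND and -0.12 on FD, and Zap70, a substrate of that phosphatase, had 0.11 and -0.30. Under the filter, Pstpip1, at or under the floor on 1 array, had -1.26 and 1.06, while Fgr was lower on both diets with -1.37 and -1.16.

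**Figure D4:**
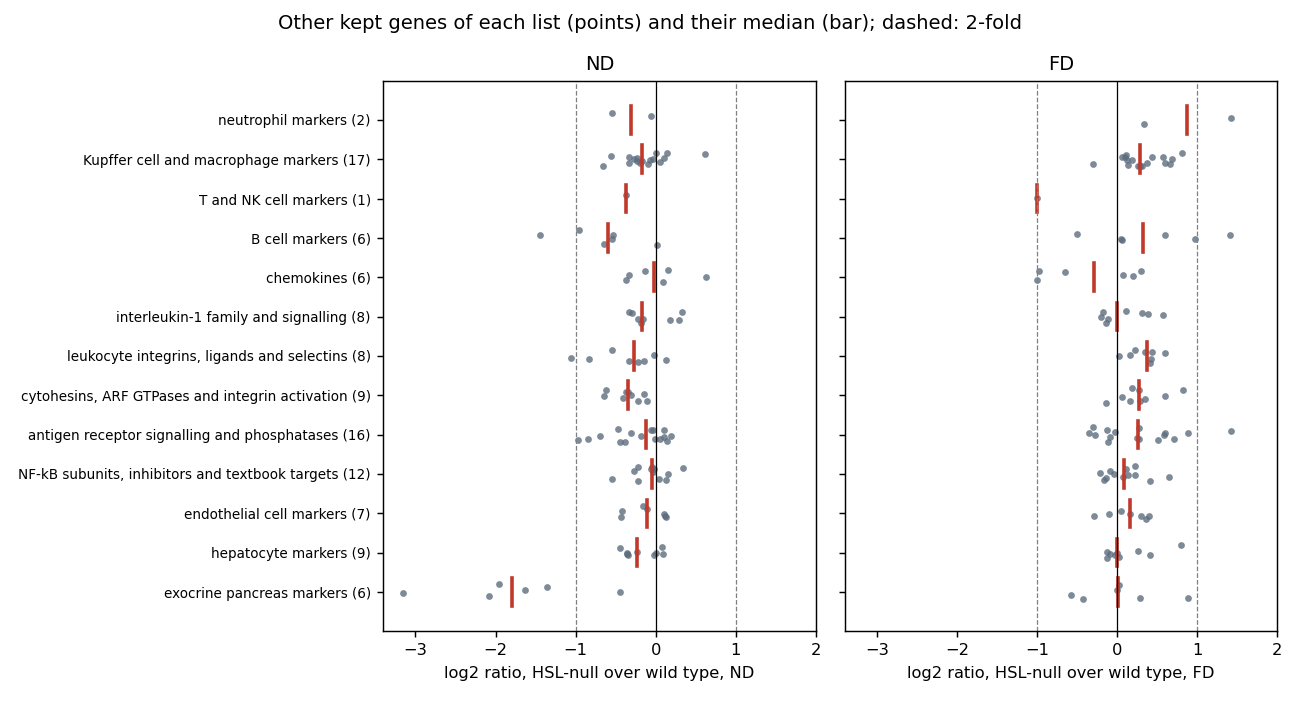
Log2 ratio of HSL-null over wild type on ND (left) and FD (right) for the genes of 13 lists that passed the filter, without the 5 genes (points; number in brackets), with a red bar at each list's median and dashed lines at 2-fold. Integrin genes lie mostly left of 0 on ND (median -0.28) and right of it on FD (0.38), and exocrine pancreas markers lie far to the left on ND (-1.79) and around 0 on FD (0.01).

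Markers of the leukocytes that could carry these transcripts had medians of the same signs, T and NK cell markers on FD excepted. In whole liver, fewer cells of a type and less RNA per cell cannot be told apart. Over 4 lists of neutrophil, macrophage, T and NK cell and B cell markers, 26 genes passed the filter, with medians of -0.23 on ND against 0.29 on FD, and 18 of the 26 were lower on ND yet higher on FD in HSL-null liver, against 32.1% of all genes. Their part in the result for the 5 genes was not tested.

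Of 19 Kupffer cell and macrophage markers, 17 passed the filter, with medians of -0.17 on ND against 0.28 on FD and 0 past 2-fold. On ND, 5 of the 17 had a log2 ratio above 0, against 47.3% of all genes, and on FD 16 of the 17 did, against 58.3% of all genes. The FD median was between 0.11 and 0.36 under the 3 scalings. The summed signal of the 19 was 5269 in HSL-null and 5923 in wild-type liver on ND, and 5024 in HSL-null and 4007 in wild-type liver on FD. Laptm5 had log2 ratios of -0.66 and 0.60, Mpeg1 -0.19 and 0.81, Aif1 -0.23 and 0.66 and Ctss -0.34 and 0.28, while Adgre1, which encodes the F4/80 antigen of macrophages, had -0.09 and 0.06. The Kupffer cell receptor gene Clec4f, with 0.15 and 0.57, Cd5l, with 0.11 and 0.43, and the scavenger receptor gene Msr1, with 0.61 and 0.69, were above 0 on both diets.

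Of 13 neutrophil markers, 2 passed the filter and 4 were at or under the floor on all arrays. Their summed signal was 638.0 in HSL-null and 734.5 in wild-type liver on ND, and 974.8 in HSL-null and 414.7 in wild-type liver on FD, most of it from Lcn2, which hepatocytes also make in the acute phase. Lcn2 had a log2 ratio of -0.06 on ND against 1.43 on FD, and Csf3r -0.54 and 0.33. S100a8 lay under the filter with 17.9 in HSL-null and 19.4 in wild-type liver on ND, and 37.5 in HSL-null and 8.6 in wild-type liver on FD, and S100a9 read 10.2 in HSL-null and 16.1 in wild-type liver on ND, and 30.3 in HSL-null and 7.4 in wild-type liver on FD. Of the 9 neutrophil markers above the floor on at least 1 array, 7 were lower on ND yet higher on FD in HSL-null liver, most of them at signals under the filter. Among these were the granule protein genes Camp, with log2 ratios of -1.52 and 1.14, Ltf, with -0.92 and 1.46, and Prtn3, with -0.62 and 1.84 and its wild-type FD signal under the floor. The other 2 were the granule protein genes Mpo, with -0.26 and -0.34, and Elane, with 0.05 and 0.62. The 32.1% of all genes counts only genes that passed the filter, so it is no like share for the 7 of 9. No like share was counted, so the 7 of 9 is a description and no result about neutrophils. The part of neutrophil transcripts in the result for Cxcl1 and Il1b was not tested.

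Of 8 B cell markers, 6 passed the filter, with medians of -0.60 on ND against 0.33 on FD, and 5 of the 6 were lower on ND and higher on FD. Cd72 had log2 ratios of -1.44 and 0.98. Ighm, the heavy chain of IgM, read 156.5 in HSL-null and 225.5 in wild-type liver on ND, and 341.0 in HSL-null and 128.0 in wild-type liver on FD. Cd79b had -0.95 and 0.60 and Pax5 -0.65 and 0.06. The exception among the 6 was Ms4a1, which encodes CD20, with 0.02 on ND and -0.50 on FD. Under the filter, Cd79a had -0.24 and 1.12, whereas Cd22, at or under the floor on 2 arrays, had 0.74 and -0.41. The summed signal of the 8 was 348.7 in HSL-null and 514.8 in wild-type liver on ND, and 574.8 in HSL-null and 331.5 in wild-type liver on FD. T and NK cell markers gave no such picture. Of 15, only Ccl5 passed the filter, Cd8a read between 0.5 and 1.5, and the summed signal was 141.1 in HSL-null and 137.1 in wild-type liver on ND, and 142.0 in HSL-null and 138.6 in wild-type liver on FD.

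Some markers of cells other than leukocytes also differed between the arrays. Of 7 exocrine pancreas markers on the array, 6 had their highest signal on the wild-type ND array, which was also the highest for 4 of the 5 genes. The exception was Cela1, an elastase gene, with 116.4 in HSL-null and 158.5 in wild-type liver on ND, and 184.1 in HSL-null and 99.9 in wild-type liver on FD. Among markers above the floor on at least 1 array, wild-type ND was also highest for 6 of 9 of hepatocytes and 13 of 19 of Kupffer cells and macrophages. It was highest for 1 of 9 of neutrophils and 2 of 11 of T and NK cells. The share over all genes was not counted, so these counts of the highest array are a description and no result about the cell types. Of the 7 pancreas markers, 6 passed the filter and 5 of these were, on ND, 2-fold lower in HSL-null liver. Their median log2 ratio there was -1.79, against 0.01 on FD, which the 3 scalings turned to between -0.13 and -0.06. Prss2, a trypsinogen gene, read 15.2 in HSL-null and 135.9 in wild-type liver on ND and was under the floor on both FD arrays. Ctrb1, a chymotrypsinogen gene, read 67.9 in HSL-null and 286.3 in wild-type liver on ND, and 49.8 in HSL-null and 74.1 in wild-type liver on FD, and Clps, a pancreatic colipase gene, read 38.2 in HSL-null and 118.8 in wild-type liver on ND, and 43.2 in HSL-null and 42.6 in wild-type liver on FD. The summed signal of the 7 was 282.5 in HSL-null and 847.5 in wild-type liver on ND, and 327.2 in HSL-null and 271.6 in wild-type liver on FD. The part of these transcripts in the result for the 5 genes was not tested.

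The remaining markers differed less on ND than those of the exocrine pancreas did. Hepatocyte markers, all 9 passing the filter, had a median of -0.23 on ND and 0.004 on FD, the FD value -0.16 under median scaling, and Alb, the brightest of them, read 5382 in HSL-null and 6913 in wild-type liver on ND, and 4680 in HSL-null and 4976 in wild-type liver on FD. Endothelial markers had medians of -0.11 on ND against 0.16 on FD over 7 genes, with signs turned under median scaling (0.02 and -0.01). Red blood cell markers had -0.40 on ND over 4 genes and 0.03 on FD, where the 3 scalings gave -0.14 to -0.05.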

How the data were processed

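Values are the intensities that the authors deposited, linear and 1 for each probe set on each array. They were summarised with Affymetrix's MAS5, per the submitters' processing notes; the version was not given in the sources used here. MAS5 signals of dim probe sets are noisy, which bears on Il1b and Ptpn22. Other files the authors deposited hold run settings only; they named the diet of the label on 4 of 4 arrays and 1 chip lot. Of 12488 probe sets 66 were controls; of the others 10833 had 1 gene in the platform annotation, 396 had several and 1193 none, and only those with 1 gene were named. The RefSeq gene table (GRCm38.p6) held 10817 of the 10833.

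Signals were floored at 6.1, the 25th percentile, then logged to base 2. A probe set was kept at a mean signal of at least 26.94, the median of the means (5615 with 1 gene), and the brightest stood for its gene (4829 genes). Ratios are HSL-null over wild type or FD over ND, on the log2 scale computed from the deposited intensities. Each ratio compares a probe set with itself on 2 arrays. Signals of different probe sets were set against each other only in the summed signals and in calling probe sets or genes bright or dim, and give no measure of relative abundance. With 1 array per group, the number of arrays limits the precision and no test was made.

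The genes, the 15 gene lists and the rules were chosen with earlier results of these data known. Named genes are the 5, the others past 2-fold on both diets, the 10 nearest in pattern and 2 nearest to each, up to 4 per list with the largest FD minus ND difference, direct partners of the 5, and Lipe, Alb, Prss2, Ctrb1 and Clps. T2, Xist, Erdr1 and Ccnl2 were named as lying just outside the limits. Picked with their values in view were Cxcl2, Cxcl5, Cxcl10, Cxcl13, Cxcl14, Ccl3, Ccl22, Il1a, Nfkbie, Nfkb2, Pstpip1, Fgr, S100a8, S100a9, Mpo, Elane, Prtn3, Ltf, Camp, Cela1, Cd8a, Cd22, Cd79a, Ms4a1, Clec4f, Cd5l, Msr1, Marco, Fcer1g and Adgre1. In 9 alternatives, 1 choice was changed at a time: scaling by quantile normalization, by medians or by cyclic loess (limma 3.58.1), a floor at the median signal (26.7), a pseudocount, no filter, a stricter filter (mean signal at least 97.1), all kept probe sets of a gene averaged, and no probe sets with a suffix for shared or incomplete probes. The steps were tested on simulated data and ran in Python 3.11.15 with pandas 2.3.3. In the simulation only bright probe sets were changed, by clearly more than 2-fold and with less scatter than between probe sets here. It therefore says nothing about dim genes or about ratios near the 2-fold limit. Promoter windows are those of RefSeq, cut to the 250 bases before the start. Itgb2 has no window there.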

Additional observations from a re-analysis of the deposited data

Results flagged for a closer look

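In HSL-null liver 8 genes were 2-fold below wild type on ND and 2-fold above it on FD, so the genotype log2 ratio had opposite signs on the 2 diets. The difference was not tested, since each group has 1 array, and the genes were selected on it. The FD minus ND difference of the genotype log2 ratio was 3.78 for Cxcl1, 2.66 for Ptpn22, 2.50 for Il1b, 2.38 for Itgb2 and 2.31 for Cytip. It was 3.37 for Igh-VS107, 2.71 for Krtap3-1 and 2.36 for Chrne. The SD of this difference between probe sets of the same gene was 0.43 over 687 genes, and error common to an array is not in it.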

How the results depend on the processing

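All 5 genes stayed lower on ND yet higher on FD in HSL-null liver under each of the 9 alternatives that kept them. Genes past 2-fold on both diets numbered 8, and 2 under quantile normalization, 2 under median scaling, 3 under cyclic loess, 4 with the floor at the median, 2 with a pseudocount, 31 without a filter, 1 with the stricter filter and 5 without suffixed probe sets. The opposite pattern had 0 genes, but 1 under each of the 3 scalings and 10 without a filter. The 5 genes among them numbered 2 under each of the 3 scalings, 2 with the floor at the median, 2 with a pseudocount and 1 with the stricter filter, which kept Cxcl1 alone. Genes 2-fold higher on FD numbered 90, and 51 under median scaling, 58 under cyclic loess, 52 with the floor at the median, 58 with a pseudocount, 277 without a filter and 20 with the stricter one. Genes 2-fold lower on ND numbered 52, and 30 with the floor at the median, 33 with a pseudocount, 218 without a filter and 7 with the stricter one. Of the genes past 2-fold, 68.4% on ND were lower and 66.2% on FD higher in HSL-null liver, against 57.6% and 51.6% under quantile normalization, 54.5% and 41.5% under median scaling, 59.7% and 50% under cyclic loess, and 50% and 45.5% with the stricter filter. Median scaling moved the median log2 ratio of all genes to 0.11 on ND and -0.10 on FD. With that scaling, Cxcl1 (-1.67 and 1.81) and Ptpn22 (-1.22 and 1.14) stayed past 2-fold on both diets. These ratios were not taken relative to the moved medians. Values of the 5 genes moved by less than the SD between probe sets in 194 cases and by more in 6, all of Il1b and Ptpn22 with the floor at the median. No paired analysis was possible because each group has 1 array. Signal over background limits Il1b, Ptpn22 and the neutrophil and T cell markers. No array was repeated, so error shared on an array was not measured.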
